A study of Mus musculus with 6 samples.

Results

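Matrix metalloproteinases (Mmp), ADAMTS proteases (Adamts), ADAMTS-like proteins (Adamtsl) and tissue inhibitors of metalloproteinases (Timp) were followed in ribosome-bound RNA of neonatal mouse kidney. The members were taken by gene symbol alone, as every row of the deposited table named Mmp, Adamts, Adamtsl or Timp with a number and, in places, a final a or b. This gave 51 of the table's 48587 genes, namely 23 Mmp, 19 Adamts, 5 Adamtsl and 4 Timp genes.

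The 6 libraries came from kidneys of newborn animals, 3 from littermate controls (Cdh16Cre;Foxp1fl/+;RiboTag) and 3 from Foxp1-deficient animals (Cdh16Cre;Foxp1fl/fl;RiboTag). Both groups thus carried Cdh16-Cre, which is active in kidney tubule epithelium, a RiboTag allele that adds an HA tag to a ribosomal protein where Cre has acted (used here to pull ribosomes down with an anti-HA antibody), and at least 1 floxed copy of Foxp1, a forkhead transcription factor gene. The libraries are also labelled by treatment, vehicle in one group and chronic acid load in the Foxp1-deficient one, so genotype and treatment cannot be told apart. Nothing in the labels says that the libraries of a group are separate animals, so the p-values below measure the spread between libraries, which may be technical.

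Total counts ran from 9710048 to 18958196, and 29 to 46 of the 51 members had at least 1 count in a library. Foxp1 itself had 48.8, 30.8 and 35.9 TMM-scaled CPM (counts per 1000000 counts) in controls 1, 2 and 3 against 34.6, 11.3 and 29.3 in Foxp1-deficient libraries 1, 2 and 3, so the groups overlapped (log2 fold change -0.62, SE 0.49, adjusted p = 0.9998, edgeR quasi-likelihood test). The label names kidney tubular cells, yet the summed CPM of 4 thick limb and distal tubule markers was 0 to 1.65 in the libraries numbered 1 and 2 and 168 and 201 in those numbered 3. Umod, Slc12a1, Slc12a3 and Pvalb were all at 0 in control 1. The 5 proximal tubule markers did not fall as low, with 38.3 to 101 CPM in the libraries numbered 1 and 2 and 297 and 389 in those numbered 3. The 6 collecting duct markers summed to 135 to 494 CPM, of which Krt18 alone gave 129 to 491. Aqp2, Fxyd4, Atp6v1b1 and Atp6v0d2 were at 0 in Foxp1-deficient libraries 1 and 2. In controls 1 and 2, Aqp2 had 3 and 60 counts, Fxyd4 2 and 0, Atp6v1b1 0 and 0, and Atp6v0d2 3 and 0. In the libraries numbered 3 these genes had 2.69 to 7.91 CPM in the control and 2.43 to 9.60 in the Foxp1-deficient one. The 6 stromal and fibroblast markers, by contrast, summed to between 2549 and 15450 CPM and none was at 0 in any library. In such libraries of pulled-down RNA, marker sums do not give shares of cell types, and effects of the pull-down were not tested. Fewer cells of a type and less RNA per cell cannot be told apart.

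MMPs are zinc-dependent proteases that cut collagens, gelatin, laminins and other matrix and cell-surface proteins, and most are made as inactive precursors. ADAMTS proteases cut proteoglycans such as versican and aggrecan, trim the ends of procollagens, or act on fibrillin and other matrix proteins, while ADAMTS-like proteins lack the protease domain and bind to microfibrils. TIMPs block the active site of MMPs, and Timp3 also blocks several ADAM and ADAMTS proteases. In the developing kidney such proteases are known for matrix remodelling around the branching ureteric bud and in the stroma.

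Inhibitors and a small set of proteases were the most abundant members. Levels of different genes were compared in RPKM, the count divided by the summed exon length in kilobases and scaled to 1000000 counts in the library. Timp2 averaged 163 RPKM over the 6 libraries, Timp1 averaged 161, Mmp2 76.5, Mmp14 67.5, Timp3 64.7 and Mmp23 40.5. The next members, Adamts1, Adamts10, Adamtsl5 and Adamts5, averaged 12.2, 10.97, 10.8 and 9.15 RPKM. The order among neighbours was not fixed, since Timp2 ran from 83.8 to 294 RPKM over the libraries and Timp1 from 58.7 to 292. The ranges of Mmp2 (20.8 to 126), Mmp14 (49.9 to 82.5) and Timp3 (9.09 to 122.6) likewise overlapped. Of the 51 members, 25 averaged at least 5 CPM and 13 stayed under 1 CPM in every library.

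**Figure D1:**
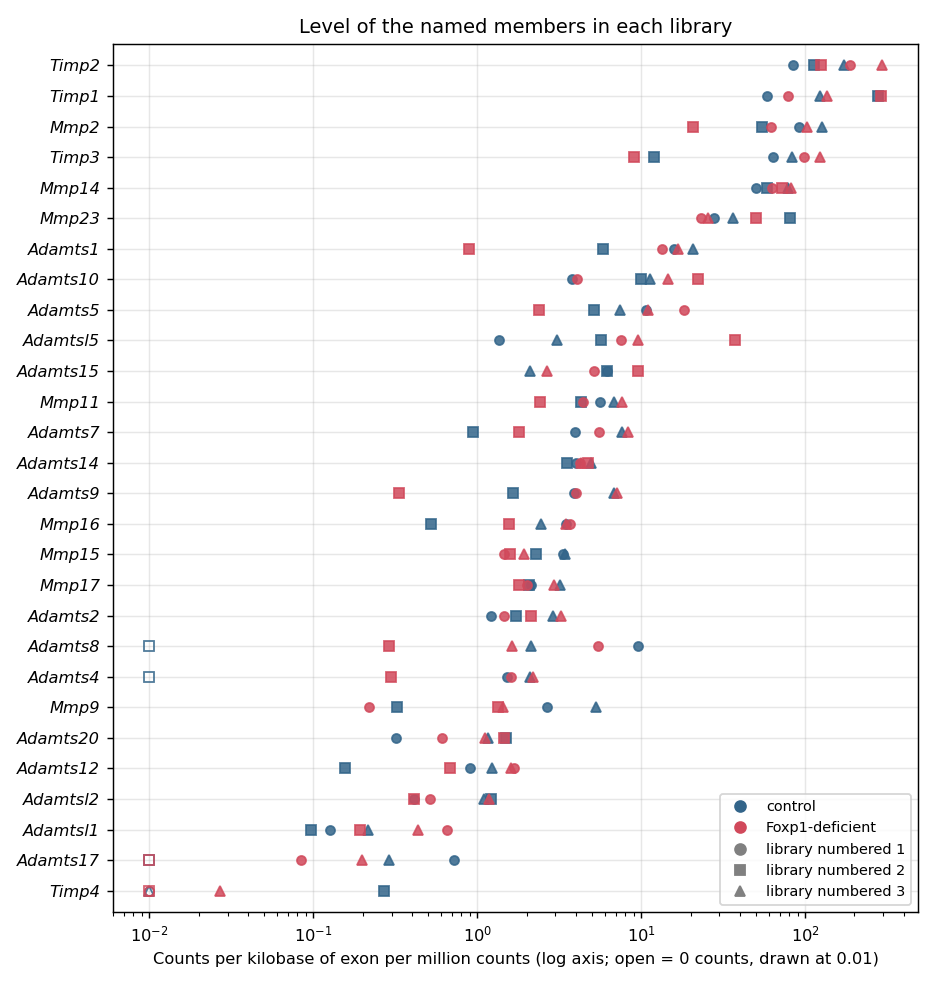
Level of 28 members in each library, in RPKM on a log axis, ordered by median; colour gives the group and shape the library number, and open symbols are counts of 0 drawn at 0.01. Timp2, Timp1, Mmp2, Timp3, Mmp14 and Mmp23 lie above the other members at their medians, and the libraries numbered 2 lie apart for Timp3 and Adamts1.

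Members at or near 0 were largely the Mmp genes of a single cluster. Mmp13, Mmp12, Mmp1b, Mmp3, Mmp1a, Mmp10, Mmp8, Mmp27, Mmp20 and Mmp7 lie within 427.1 kb on chromosome 9 (7272514 to 7699585, mm10). These 10 genes encode the interstitial collagenases, stromelysins 1 and 2, metalloelastase, matrilysin and enamelysin, among others. All 10 together collected 249 counts in the 6 libraries, and none exceeded 2.53 CPM of the library total in any library. Of the 13 Mmp genes elsewhere in the genome, 8 averaged at least 5 CPM. Mmp1a, Mmp1b, Mmp7, Mmp20 and Adamts13, which encodes the protease of von Willebrand factor, had no count in any library. A count of 0 allows up to 3 counts, or 0.158 to 0.309 CPM depending on the library, for counting error only. Mmp21 had 1 count in all, and Mmp3, Mmp10, Mmp13, Mmp27 and Adamts18 had at most 9 counts in any library.

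The upstream sequences of the cluster often held 2 motifs that were rare among promoters at large, and lacked features that a minority of promoters has. The 250 bases before each RefSeq start were read (GRCm38.p6) for the 36 members with an entry and for 27025 genes in all. The pattern TGANTCA includes the AP-1 binding motif (TGAGTCA or TGACTCA) but is wider, as N stands for any base. Searching both strands, it was found in 7 of the 10 cluster genes, in 0 of the other 26 members and in 6.87% of all genes. TATAAA, the core of the TATA box, was found in 7 of the 10, against 13.0% of all genes. GGGCGG, the core motif of Sp1, was found in 0 of the 10, in 20 of the other 26 members and in 32.9% of all genes. CpG dinucleotides were also sparse in the cluster, with a ratio of observed to expected from 0 to 0.33 and no gene above 0.6, where 34.45% of all genes lay above 0.6. The cluster was singled out after its counts were seen, and a match of letters is a description that shows no binding. The Mmp20 match reads TGAATCA, while the other matches hold G or C in the middle. The 7 matches are shown with up to 10 bases on each side, in the direction of the gene, with the TGANTCA match in capitals.
Mmp13: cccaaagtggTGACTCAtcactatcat
Mmp1b: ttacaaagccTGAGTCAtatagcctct
Mmp3: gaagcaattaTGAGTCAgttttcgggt
Mmp1a: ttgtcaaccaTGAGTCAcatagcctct
Mmp10: agcacccatgTGAGTCAtgcttagtga
Mmp20: atttgagacaTGAATCAtcacttacag
Mmp7: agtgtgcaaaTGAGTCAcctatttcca

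For contrast, the full 250 bases are given for a cluster gene and for 2 members outside it, Mmp14 with a steady high level and Adamtsl5 with the lowest p between groups. Capitals mark the AP-1, TATA and Sp1 motifs above on either strand, and the forkhead core motif TGTTTAC, searched because Foxp1 is a forkhead factor. The windows are chr9:7272264-7272513 on the plus strand for Mmp13, chr14:54431348-54431597 on the plus strand for Mmp14 and chr10:80348449-80348698 on the minus strand for Adamtsl5, all GRCm38.p6.
Mmp13: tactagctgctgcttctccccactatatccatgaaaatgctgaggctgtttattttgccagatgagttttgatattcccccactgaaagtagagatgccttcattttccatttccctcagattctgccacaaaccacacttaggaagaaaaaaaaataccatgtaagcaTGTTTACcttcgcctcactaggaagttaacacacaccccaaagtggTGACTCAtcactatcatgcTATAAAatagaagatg
Mmp14: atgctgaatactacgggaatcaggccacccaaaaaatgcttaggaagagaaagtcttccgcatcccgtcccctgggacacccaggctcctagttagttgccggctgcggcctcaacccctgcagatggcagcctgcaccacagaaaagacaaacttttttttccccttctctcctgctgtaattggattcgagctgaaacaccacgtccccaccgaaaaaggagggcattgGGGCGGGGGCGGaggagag
Adamtsl5: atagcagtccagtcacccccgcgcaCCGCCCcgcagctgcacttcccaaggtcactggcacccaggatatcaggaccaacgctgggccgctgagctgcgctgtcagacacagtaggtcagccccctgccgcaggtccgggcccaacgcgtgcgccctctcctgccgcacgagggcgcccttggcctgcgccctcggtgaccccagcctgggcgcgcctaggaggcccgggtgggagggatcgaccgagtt
In Mmp13 the AP-1 match begins 35 bases before the start, the TATAAA match 16 and the forkhead match 81. Mmp14 has adjoining GGGCGG matches at 19 and 13 bases and Adamtsl5 one at 225 bases on the opposite strand. TGTTTAC was found in 2 of the 36 members, Mmp13 and Mmp10, and in 3.09% of all genes.

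**Figure D2:**
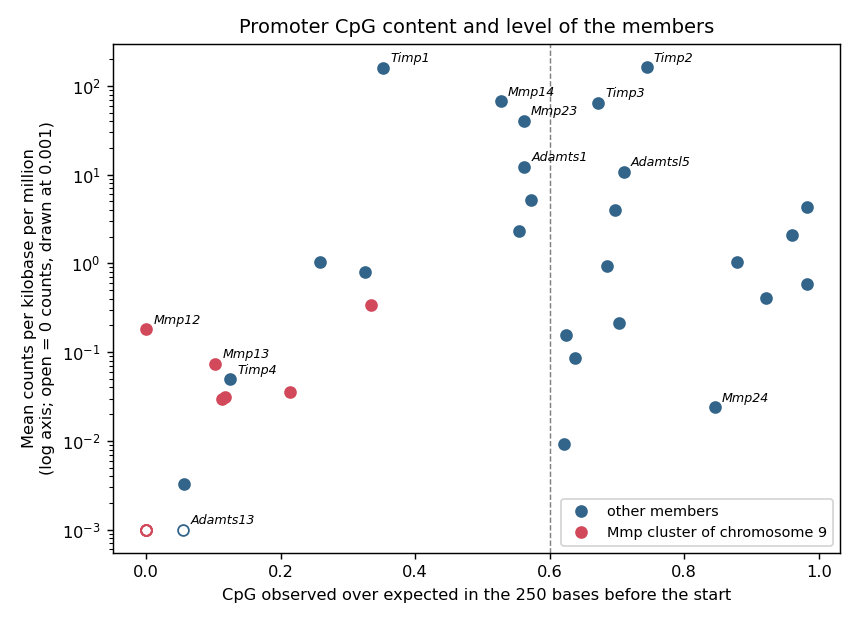
Observed over expected CpG in the 250 bases before the start (x axis) and mean level over 6 libraries in RPKM (log y axis) for 36 members; open circles are counts of 0 drawn at 0.001 and the dashed line marks 0.6. The 10 genes of the chromosome 9 cluster sit at low CpG and at or under 0.34 RPKM, while Timp1 and Mmp14, also under 0.6, are among the highest members.

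Between the groups, no member passed the edgeR test. Counts were tested across all genes with edgeR's quasi-likelihood test and Benjamini-Hochberg adjustment at 0.05, and 35 of the 51 members had enough counts to enter. At the adjusted threshold 0 of the 35 members were called and 0% of all 14311 genes tested, with an adjusted p of 0.9998 for each member. At an unadjusted p under 0.05 there was 1 member, Adamtsl5, against 0.720% of all genes. With the replicate number as a block, 0 members were again called (0% of all genes), and 5 had an unadjusted p under 0.05, against 5.32% of all genes. DESeq2 called 0 members (0.0426% of all genes) and limma-voom with quality weights 0 (0% of all genes). DESeq2 with the block called 1 member, Adamtsl5 (1.43% of all genes), and limma-voom with the block called 0 (0.0559% of all genes). Without both libraries numbered 2, edgeR with the block called 0 members (0.196% of all genes).

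Fitted levels were higher in the Foxp1-deficient group for 19 of the 35 members and lower for 16. Their median log2 fold change was 0.13 (-0.014 without Foxp1-deficient library 3), where all genes tested had a median of 0.03 and 53.6% were higher. Non-overlapping groups were seen for 3 higher members (Adamtsl5, Adamtsl1 and Timp2; 2.64% of all genes) and 2 lower ones (Mmp15 and Adamts3; 2.11% of all genes). Scaled to library totals, Timp2 and Adamtsl1 overlapped between groups. By family, 9 of 11 Mmp genes were lower (median -0.53), 10 of 16 Adamts genes were higher (0.17), 4 of 5 Adamtsl genes were higher (1.30) and 3 of 3 Timp genes were higher (0.51). These are counts of fitted values, of which none passed the adjusted threshold in edgeR. Scaled to library totals, the summed markers of mesothelium, of smooth muscle and pericytes, and of neutrophils also did not overlap between the groups. The neutrophil sums are given further on. The 3 mesothelium markers summed to 1432, 1513 and 1446 CPM of the library total in controls against 1880, 3490 and 2657 in Foxp1-deficient libraries, and the 5 smooth muscle and pericyte markers to 12363, 16746 and 9872 against 9834, 6842 and 5488. For the smooth muscle and pericyte sum, control 3 and Foxp1-deficient library 1 were nearly level, and Acta2 and Tagln gave most of it. Taken singly on that scale, the groups stood apart for 1 of the 3 mesothelium markers and 0 of the 5 smooth muscle and pericyte markers. For neutrophils, they stood apart for 2 of the 6 markers. On the TMM scale all 3 mesothelium markers overlapped, and of the 5 smooth muscle and pericyte markers Pdgfrb alone did not. The part of these cell types in the family counts and in the ratios given further on was not tested. The Timp count became 2 of 3 without control 1, control 3 or Foxp1-deficient library 2. The Adamts count became 8 of 16 with limma-voom and quality weights or without Foxp1-deficient library 3, and 8 of 17 without control 2. Without control 1, control 2 or Foxp1-deficient library 2, 4 Mmp genes were higher and 8 lower. Of the Adamtsl genes, 3 were higher and 2 lower without control 1, but 5 were higher and 0 lower with limma-voom and quality weights. With no filter on low counts Timp4 also entered, and 3 Timp genes were higher and 1 lower.

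**Figure D3:**
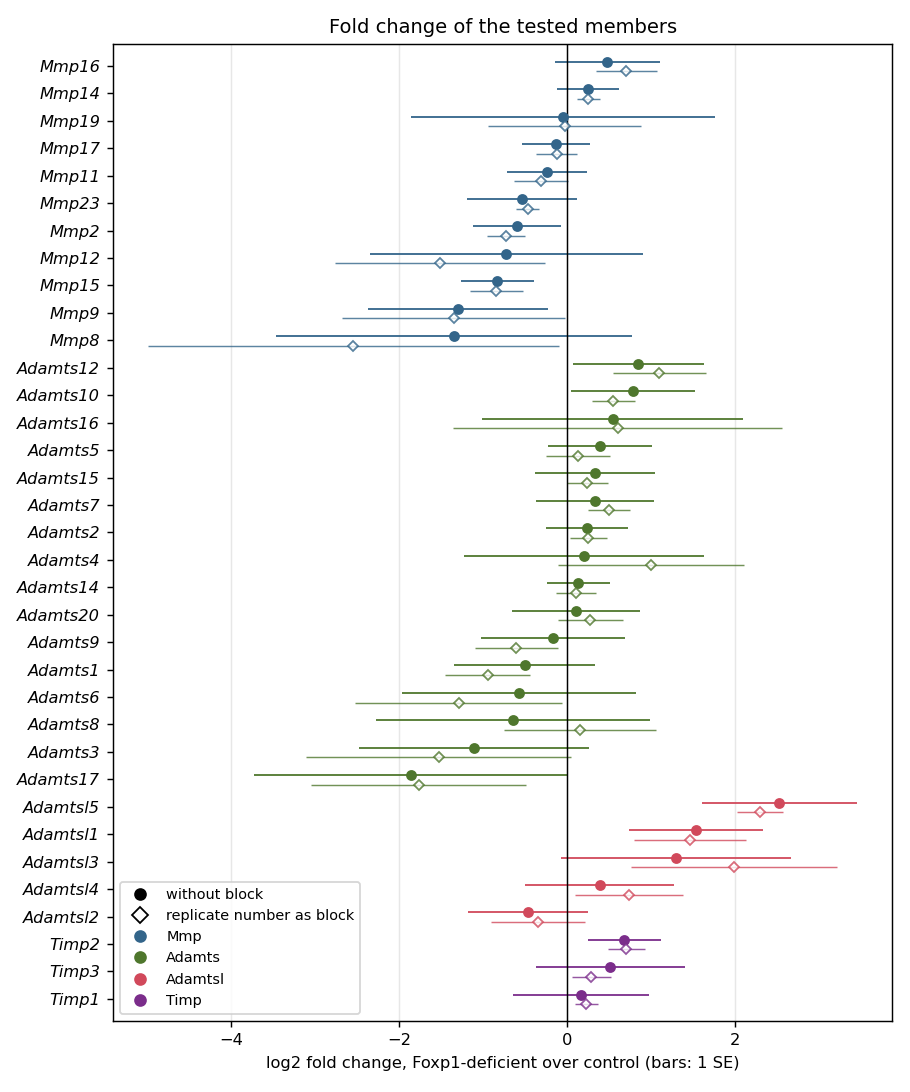
log2 fold change of Foxp1-deficient over control libraries for the 35 tested members, grouped by family; filled circles are edgeR without a block, open diamonds edgeR with one for replicate number, and bars are 1 SE. Of the Mmp genes, 9 of 11 lie below 0, and Adamtsl5 lies farthest above 0 at 2.53.

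Adamtsl5 had the lowest p of the members and the largest fitted increase. It encodes a secreted ADAMTS-like protein without protease activity that associates with fibrillin microfibrils (chromosome 10, 80339110 to 80348412, minus strand, mm10). Its level was 6.11, 31.8 and 12.8 TMM-scaled CPM in controls 1, 2 and 3 against 34.0, 218 and 39.4 in Foxp1-deficient libraries 1, 2 and 3. All 3 Foxp1-deficient libraries were thus above all 3 controls, with Foxp1-deficient library 2 far above the rest. Group means were 16.9 ± 13.3 and 97.2 ± 105 CPM (SD, n = 3 each). The log2 fold change was 2.53 (SE 0.93, adjusted p = 0.9998, unadjusted p = 0.0278, edgeR). Within equally numbered pairs the log2 differences were 2.45, 2.77 and 1.61. With the replicate number as a block the fold change was 2.29 (SE 0.27, adjusted p = 0.296 in edgeR, 0.0711 in limma-voom and 2.73e-10 in DESeq2). Without Foxp1-deficient library 2 it was 1.13 and without control 2 it was 3.34, on the log2 scale.

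The other ADAMTS-like genes were scarcer. Adamtsl1 had 23, 14 and 50 counts in the controls against 140, 24 and 105 in the Foxp1-deficient libraries, with a log2 fold change of 1.53 (SE 0.80, adjusted p = 0.9998, edgeR). Adamtsl3 had 3.19, 0 and 4.03 TMM-scaled CPM in controls against 4.98, 3.06 and 9.84 in Foxp1-deficient libraries, so the groups overlapped. Adamtsl4, whose human counterpart is a gene of lens dislocation, was higher in pairs 1 and 3 and lower in pair 2, by log2 differences of 1.39, 0.92 and -0.21. Adamtsl2, which binds fibrillin and a latent TGF-beta binding protein, had 3.12, 11.4 and 7.78 CPM in controls against 3.90, 4.08 and 8.19. Within the family, Adamtsl5 held from 51.4% of the summed RPKM in its lowest library to 94.6% in its highest.

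Mmp2, Mmp14 and Timp2 belong together in the textbook account of gelatinase activation, in which Mmp14 on the cell surface holds the Mmp2 precursor through Timp2. Mmp2, a gelatinase (chromosome 8, 92827291 to 92853420, mm10), had 295, 218 and 377 TMM-scaled CPM in controls 1, 2 and 3 against 199.6, 87.0 and 301 in Foxp1-deficient libraries. The groups overlapped, although the Foxp1-deficient library was lower in 3 of 3 pairs. Its log2 fold change was -0.60 (SE 0.52, adjusted p = 0.9998, edgeR), or -0.73 with the block (SE 0.23, unadjusted p = 0.0228, adjusted p = 0.853). Without the block it was -0.24 when Foxp1-deficient library 2 was left out and -1.06 when Foxp1-deficient library 3 was. Timp2 (chromosome 11, 118301069 to 118355740, mm10) had 309.9, 521 and 599 CPM in controls against 699, 602 and 993 in Foxp1-deficient libraries. The lowest Foxp1-deficient library lay just above the highest control. The log2 fold change of Timp2 was 0.68 (SE 0.44, adjusted p = 0.9998, edgeR), or 0.70 with the block (SE 0.22, unadjusted p = 0.0227, adjusted p = 0.853). Mmp14 (chromosome 14, 54431612 to 54441265, mm10) varied least of the 3, with 203, 298 and 299 CPM in controls against 256, 387 and 308 in Foxp1-deficient libraries, and its log2 fold change was 0.25 (SE 0.37, adjusted p = 0.9998, edgeR).

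The ratio of 2 genes within a library does not depend on how libraries are scaled. Timp2 stood to Mmp2 at 0.91, 2.07 and 1.37 in RPKM in controls 1, 2 and 3 against 3.03, 5.99 and 2.85 in Foxp1-deficient libraries 1, 2 and 3, so every Foxp1-deficient library was above every control. Mmp14 stood to Mmp2 at 0.54, 1.07 and 0.62 in controls against 1.01, 3.49 and 0.80 in Foxp1-deficient libraries, and those groups overlapped. Summed over families, Timp stood to Mmp at 1.09, 1.99 and 1.43 in controls against 2.26, 2.795 and 2.39 in Foxp1-deficient libraries. These ratios were chosen after the values were seen and were not tested. Among the 25 tested members with counts in all 6 libraries, 39 of 300 gene pairs (13%) had ratios that did not overlap between the groups, 11 of them with Adamtsl5. Over the 11720 genes tested that had counts in all 6 libraries, 4.9% of gene pairs did so.

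**Figure D4:**
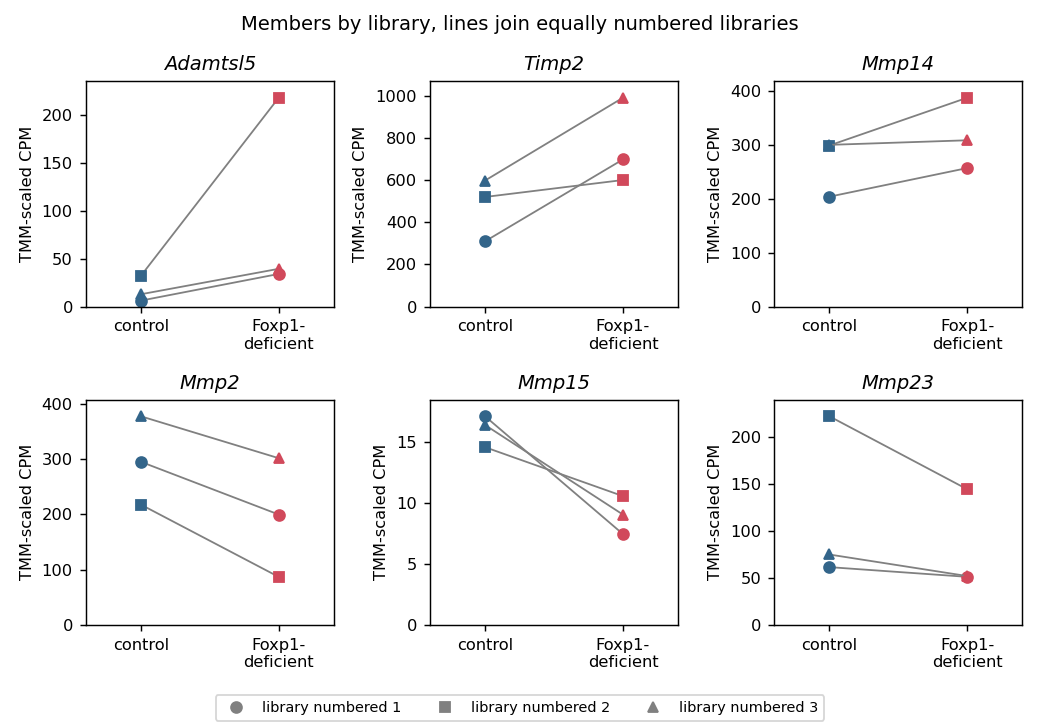
TMM-scaled CPM of 6 members in each library; lines join the control and the Foxp1-deficient library of the same number, and shape gives the number. Adamtsl5, Timp2 and Mmp14 were higher in the Foxp1-deficient library of 3 of 3 pairs, and Mmp2, Mmp15 and Mmp23 lower.

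The other inhibitors followed the library number more than the group. Timp1 (chromosome X, 20870166 to 20874735, mm10) had 49.5, 293 and 96.5 TMM-scaled CPM in controls 1, 2 and 3 against 66.7, 321 and 105 in Foxp1-deficient libraries. Timp3, the inhibitor that binds to matrix (chromosome 10, 86300372 to 86349506, mm10), had the opposite profile, with 493, 115 and 596 CPM in controls against 760, 91.7 and 866 in Foxp1-deficient libraries. The libraries numbered 2 were thus highest for Timp1 and lowest for Timp3 in both groups, and the ratio of Timp1 to Timp3 in RPKM ran from 0.80 to 1.49 in the other 4 libraries and was 23.4 and 32.1 in those numbered 2. The log2 fold changes were 0.17 (SE 0.81) for Timp1 and 0.51 (SE 0.89) for Timp3, each with an adjusted p of 0.9998 in edgeR. With the block they were 0.23 (SE 0.13) for Timp1 and 0.29 (SE 0.23) for Timp3, each with an adjusted p of 0.853 in edgeR. In the fit without a block, the sign for Timp1 turned without Foxp1-deficient library 2 (-0.76), control 1 (-0.25) or control 3 (-0.065). The value for Timp3 in that fit became 0.074 without control 2, 0.083 without Foxp1-deficient library 3 and 1.02 without Foxp1-deficient library 2. For Timp3, 21.3% of the exon bases are also exon bases of Syn3 on the other strand, and without strand in the counting those reads cannot be told apart. Timp4 had 18 counts in control 2 and 3 in Foxp1-deficient library 3, and 0 in the other 4 libraries.

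Fitted changes of the membrane-type MMPs had both signs, and none passed the test. Mmp15 (chromosome 8, 95352268 to 95375080, mm10), encoding the second membrane-type enzyme, had 17.1, 14.6 and 16.4 TMM-scaled CPM in controls against 7.46, 10.6 and 9.06 in Foxp1-deficient libraries. Every Foxp1-deficient library was below every control, and the spread within each group was small. Group means were 16.1 ± 1.31 and 9.04 ± 1.56 CPM (SD, n = 3 each). The log2 fold change was -0.83 (SE 0.43, unadjusted p = 0.0929, adjusted p = 0.9998, edgeR), or -0.84 with the block (SE 0.31, unadjusted p = 0.0420, adjusted p = 0.853). Mmp16 had 28.6, 5.36 and 18.7 CPM in controls against 30.3, 16.7 and 26.2 in Foxp1-deficient libraries, with a low value in control 2. Mmp17, whose product is held by a lipid anchor, had 13.3, 16.3 and 18.9 CPM in controls against 12.6, 14.8 and 16.8 in Foxp1-deficient libraries. Mmp24 and Mmp25 had at most 13 counts in any library.

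Among the other MMPs, Mmp23, a short enzyme without the hemopexin domain, was the most abundant after Mmp2 and Mmp14. It had 61.7, 223 and 75.2 TMM-scaled CPM in controls against 51.3, 145 and 52.2 in Foxp1-deficient libraries. The groups overlapped because the libraries numbered 2 were highest in both, while all 3 pairs were lower in the Foxp1-deficient library. The log2 fold change was -0.53 (SE 0.65, adjusted p = 0.9998, edgeR), or -0.47 with the block (SE 0.14, unadjusted p = 0.0195, adjusted p = 0.853). Without control 2 the fold change turned to 0.26 in the fit without a block. Mmp11, stromelysin 3, had 13.6, 13.0 and 15.6 CPM in controls against 10.9, 7.65 and 17.1 in Foxp1-deficient libraries. Mmp19 had counts in the libraries numbered 1 and 3 alone, with 4.64 and 3.69 CPM of the library total in the Foxp1-deficient ones against 3.15 and 5.55 in controls, and 23.1% of its exon bases are shared with Tmem198b on the other strand.

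Mmp9, Mmp8 and Mmp12 encode enzymes known from neutrophils and macrophages. Mmp9, the second gelatinase, had 8.97, 1.37 and 16.6 TMM-scaled CPM in controls against 0.74, 5.86 and 4.44 in Foxp1-deficient libraries, and the groups overlapped. Its log2 fold change was -1.30 (SE 1.07, adjusted p = 0.9998, edgeR), with pairs 1 and 3 lower and pair 2 higher. Mmp8 had 29, 0 and 28 counts in controls against 0, 0 and 27 in Foxp1-deficient libraries, and Mmp12 had 6, 21 and 46 against 0, 7 and 44. Beside them, all 5 macrophage and leukocyte markers (Csf1r, Adgre1, Ptprc, Laptm5 and Lyz2) were lower in each pair on the Foxp1-deficient side. Their sum was 259, 213 and 879 CPM in controls against 49.2, 91.2 and 382 in Foxp1-deficient libraries. The 6 neutrophil markers summed to 2.97 to 13.6 CPM in controls against 0.844 to 1.75 in Foxp1-deficient libraries, so the sums did not overlap. In each library 2 to 5 of them were at 0, and Mpo and Elane gave most of the control sums. On the Foxp1-deficient side, 0 of the 6 were higher in pairs 1 and 2 and 3 of the 6 in pair 3. The part of these cells in the values of the 3 enzymes was not tested.

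ADAMTS proteoglycanases, which cut versican and aggrecan, showed their largest differences between library numbers. Adamts1 had 80.1, 36.9 and 97.0 TMM-scaled CPM in controls against 67.7, 5.86 and 76.8 in Foxp1-deficient libraries. Adamts9 had 55.9, 29.4 and 91.1 CPM against 57.6, 6.25 and 92.6. For each, Foxp1-deficient library 2 was the lowest, and without that library the log2 fold changes of -0.51 and -0.17 became 0.022 and 0.36. Adamts9 also turned to 0.30 without control 3, and 12.0% of its exon bases are shared with 2 genes on the other strand. Adamts5, the main aggrecanase of mouse cartilage, had 82.4, 49.1 and 53.0 CPM in controls against 140.1, 23.8 and 77.5 in Foxp1-deficient libraries. Adamts15 had 35.0, 43.3 and 11.1 CPM against 29.0, 70.0 and 13.6, with the libraries numbered 3 lowest in both groups. Adamts4 had 104, 0 and 185 counts in controls against 130, 14 and 200 in Foxp1-deficient libraries. Adamts20 had 2.72, 16.0 and 9.28 CPM in controls against 5.20, 16.2 and 8.74 in Foxp1-deficient libraries. Single libraries set the sign for several of these. Adamts5 turned to -0.29 without Foxp1-deficient library 1, and Adamts4 to -0.38 without control 2 and -0.22 without Foxp1-deficient library 3. Adamts15 turned to -0.47 and Adamts20 to -0.41 without Foxp1-deficient library 2, and to -0.072 without control 3 and -0.34 without control 1. In edgeR without the block, the 7 proteoglycanases had log2 fold changes with a median of 0.11, and 4 of them were higher.

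The procollagen N-propeptidases trim fibrillar procollagens, and none of the 3 passed the test. Adamts14 had 19.7, 21.7 and 22.8 TMM-scaled CPM in controls against 20.8, 30.5 and 19.3 in Foxp1-deficient libraries. Adamts2 had 10.8, 19.1 and 24.1 CPM against 12.9, 24.5 and 26.4, higher in 3 of 3 pairs with overlapping groups. Adamts3 had 34, 39 and 55 counts in controls against 38, 0 and 43 in Foxp1-deficient libraries. The log2 fold changes of Adamts14 and Adamts2 were 0.13 (SE 0.38) and 0.24 (SE 0.49), each smaller than its SE. Adamts14 turned to -0.091 without Foxp1-deficient library 2 and Adamts2 to -0.028 without control 1. Adamts3, the scarcest of the 3, did not overlap between groups and had a log2 fold change of -1.11 (SE 1.37, adjusted p = 0.9998, edgeR), or -0.54 without Foxp1-deficient library 2, where it was at 0.

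Adamts7 and Adamts12, proteases of cartilage oligomeric matrix protein, were lowest in the libraries numbered 2. Adamts7 had 23.6, 7.04 and 42.3 TMM-scaled CPM in controls against 33.0, 13.9 and 45.0 in Foxp1-deficient libraries. Adamts12 had 5.31, 1.16 and 6.75 CPM against 9.90, 5.23 and 8.74. Both were higher in 3 of 3 pairs, with overlapping groups. Adamts7 turned from 0.33 to -0.11 without control 2 and -0.064 without Foxp1-deficient library 3. Adamts10, a fibrillin-binding protease, was the reverse in profile, with 19.6, 64.7 and 54.5 CPM in controls against 21.0, 149.7 and 68.6 in Foxp1-deficient libraries. Its log2 fold change was 0.78 (SE 0.74, adjusted p = 0.9998, edgeR), and -0.040 without Foxp1-deficient library 2. Adamts17, a relative of Adamts10, had 80, 0 and 41 counts in controls against 11, 0 and 29 in Foxp1-deficient libraries. The remaining scarce members, Adamts6, Adamts16, Mmp28 and Adamts19, reached at most 5.18, 1.96, 1.84 and 1.31 CPM of the library total in any library.

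Taking the 35 tested members together, the library number, with 3 levels, accounted for more of the variation than the group, with 2, in 30. Having more levels gives the number an advantage in such a comparison. A median of 69.0% of the sum of squares of log2 CPM went with the number and 9.87% with the group, where all genes tested had medians of 79.3% and 5.73%. The exceptions were Mmp15 (87.2% with the group), Adamtsl1 (71.6%), Adamtsl5 (51.9%), Timp2 (48.9%) and Adamts3 (30.7%). The libraries numbered 2 were the lowest of their group in both groups for 16 members, Timp3, Mmp2 and Adamts1 among them, and, on the TMM scale, the highest in both for 7 (Timp1, Mmp23, Adamtsl4, Adamtsl5, Adamts10, Adamts15 and Adamts20). Over all genes tested those shares were 38.2% and 27.1%. Within equally numbered pairs, 12 of the 35 members were higher in 3 of 3 (18.0% of all genes) and 8 were lower in 3 of 3 (16.0% of all genes).

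**Figure D5:**
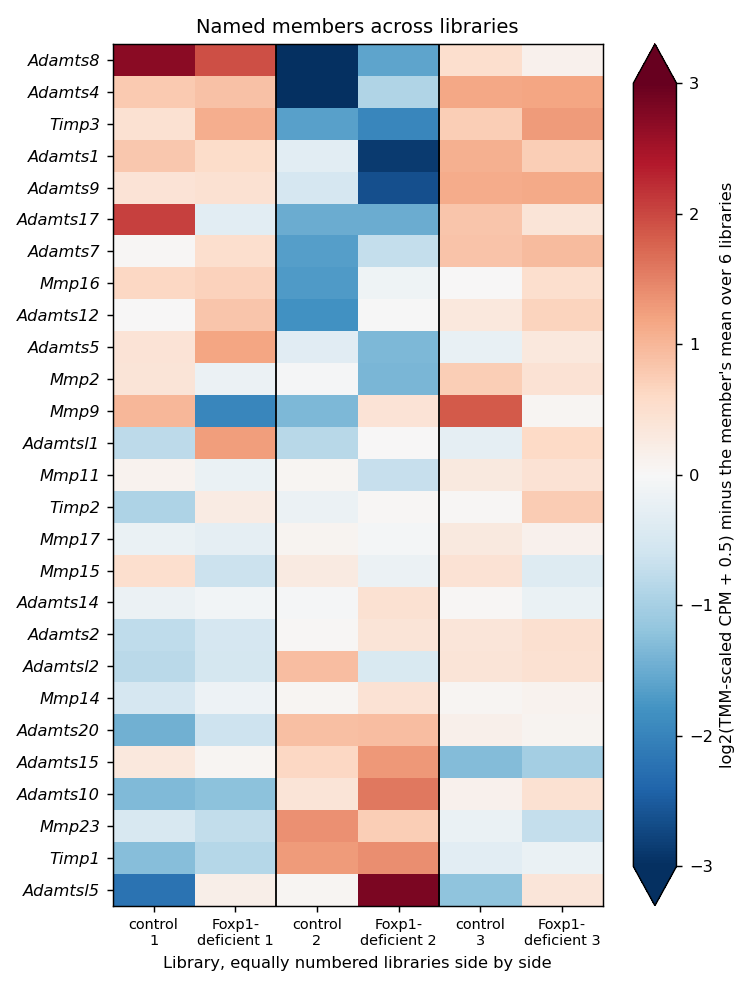
log2(TMM-scaled CPM + 0.5) of 27 named members minus each member's mean over 6 libraries, with equally numbered libraries side by side and members ordered by their level in the libraries numbered 2; colours end at 3 in each direction. Timp3 and Adamts1 were lowest and Timp1 and Mmp23 highest in the libraries numbered 2 of both groups, whereas Mmp15 separated by group.

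The partners, activators, relatives and substrates of these enzymes were taken from a list of 50 genes, of which 44 could be tested. None passed at the adjusted threshold with or without the block, while 31 had a higher and 13 a lower fitted level, with a median log2 fold change of 0.15. With the block the split was 27 higher and 17 lower, and over all genes tested 53.6% were higher without the block and 49.5% with it. At an unadjusted p under 0.05 there were 2, Eln and Vwf, against 0.720% of all genes. Eln, encoding elastin, had 11.3, 22.1 and 85.4 CPM of the library total in controls against 71.3, 151 and 274 in Foxp1-deficient libraries (log2 fold change 2.13, SE 0.79, adjusted p = 0.9998, edgeR). Vwf, the endothelial substrate of Adamts13, had 12.3, 4.17 and 3.30 CPM against 1.37, 0 and 1.00 (-3.11, SE 1.32, adjusted p = 0.9998, edgeR). The 4 endothelial markers beside it summed to 44.1, 6.12 and 56.5 CPM in controls against 5.11, 5.56 and 29.4 in Foxp1-deficient libraries, and their part in the Vwf value was not tested. Fbln1, a fibulin that acts as a cofactor of Adamts1, had 72.8, 40.7 and 56.2 CPM in controls against 81.7, 140.5 and 90.5 in Foxp1-deficient libraries. Vcan, encoding the proteoglycan versican, had 94.9, 27.7 and 64.8 CPM against 207, 37.9 and 139, higher in each pair (1.02, SE 0.61, adjusted p = 0.9998, edgeR). Of the 9 activators and plasminogen system genes, 8 were tested and 4 had a higher fitted level. All 5 ADAMTS-like relatives and cofactors had a higher fitted level, but on the TMM scale the groups overlapped for all except Fbln1. Pcolce and Thsd4 were lower in pair 2, and Pcolce2 was lower in pair 3.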

How the data were processed

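RNA bound to HA-tagged ribosomes was sequenced in 3 control and 3 Foxp1-deficient libraries, grouped by sample title. The authors deposited raw counts per gene symbol. Per the file headers, featureCounts 1.5.1 counted read pairs on exons of an mm10 annotation numbered 86, and the command sets no strand or multi-mapping option. STAR, Trimmomatic, FastQC, SAMtools, deepTools and DESeq2 also appear per the submitters' processing notes, without settings.

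Differences were tested in edgeR 4.0.16 under R 4.3.3 (TMM, filterByExpr, quasi-likelihood F test, Benjamini-Hochberg, two-sided), and SE is the log2 fold change over the root of F. Alternatives were DESeq2 1.42.0, limma 3.58.1, other size factors, other low-count filters, the replicate block and left-out libraries. CPM are TMM-scaled unless said to be of the library total, as marker sums are. RPKM use library totals and the deposited exon lengths. The fits were also run on simulated counts with the same spread setting for every gene. Such counts do not show how the tests perform on these libraries. RefSeq promoter windows (GRCm38.p6) matched 36 of 51 members. Those not matched were Adamts4, Mmp9, Mmp16, Adamtsl1, Mmp17, Mmp19, Mmp2, Adamts15, Adamts8, Adamts7, Adamts16, Adamts6, Adamts5, Adamts10 and Adamts19. Figures were drawn with matplotlib 3.10.9.

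Equally numbered libraries deviated together from their group means across 14311 genes (r = 0.57, 0.53 and 0.62). The pair differences and the fits with the replicate block treat numbers as pairs on the strength of the data alone. The main edgeR test has no block and leaves this pairing out. Members and lists were chosen with earlier results of these data known. Members named with values average at least 5 CPM, are among the 5 of lowest p in a direction, or are Timp genes; others, and the printed sequences, were chosen after values were seen.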

Additional observations from a re-analysis of the deposited data

How the results depend on the processing

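Over 18 alternatives, 0 members were called in all but DESeq2 with the replicate block (1). Counts over all genes were 6 with DESeq2, 169 with DESeq2 and the replicate block, 8 with limma-voom and the replicate block, 30 without the libraries numbered 2 in edgeR with the replicate block, and 0 elsewhere. The replicate block in edgeR left both counts at 0 and changed no other call. The members' median log2 fold change was 0.091 with library totals, 0.17 with the stricter filter, 0.086 with limma-voom and quality weights, 0.23 with DESeq2 and the replicate block, 0.060 without the libraries numbered 2, 0.062 without them and with the block, and -0.014 to 0.15 with 1 library left out. Of the 27 named members tested, 13 kept their direction wherever they were fitted.

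The log2 fold changes of the others turned as follows, and the cause was not tested. With limma-voom and quality weights, Adamtsl2 was 0.086 and Adamts14 -0.11. With the replicate block Adamts8 was 0.15, or 0.51 in DESeq2. Without the libraries numbered 2, Adamtsl2 was 0.16, Adamts9 0.037, Adamts14 -0.080 and Adamts15 -0.11, and with the block Adamtsl2 was 0.20, Adamts9 0.038 and Adamts14 -0.080. With 1 library left out, Timp1 ran from -0.76 to 1.15, Adamts4 from -0.38 to 0.82, Mmp23 from -1.20 to 0.26, Adamts9 from -0.88 to 0.36, Adamts14 from -0.091 to 0.24, Adamts15 from -0.47 to 0.72, Adamts8 from -2.04 to 1.30, Adamts7 from -0.11 to 1.00, Adamts2 from -0.028 to 0.51, Adamts20 from -0.41 to 0.72, Adamts1 from -0.95 to 0.022, Adamts5 from -0.29 to 0.83 and Adamts10 from -0.040 to 1.22. Depth limits the members under 1 CPM, where 3 counts are 0.158 to 0.309 CPM.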

Other observations

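Adamts8 and Adamts15, both proteoglycanase genes, lie 20.1 kb apart on chromosome 9 in opposite orientations, and their profiles parted in the libraries numbered 2. Adamts8 had 629, 0 and 179 counts in controls 1, 2 and 3 against 425, 13 and 143 in Foxp1-deficient libraries 1, 2 and 3. Adamts15 had 527, 412 and 228 counts against 513, 549 and 298. On the TMM scale both genes were lower in the library numbered 3 than in that numbered 1 in each group, whereas in the libraries numbered 2 Adamts8 was at 0 and 1.66 CPM and Adamts15 at 43.3 and 70.0, its highest values. Scaled to library totals, control 1 (36.9 CPM) and control 2 (36.6) were nearly level for Adamts15. Adamts1 and Adamts5, 55.1 kb apart on the minus strand of chromosome 16, were both lowest in the libraries numbered 2, with 351 and 467 counts in control 2 and 46 and 187 in Foxp1-deficient library 2. The ratio of Adamts5 to Adamts1 in RPKM was 0.67, 0.87 and 0.36 in controls against 1.36, 2.66 and 0.66 in Foxp1-deficient libraries, and the groups overlapped. These neighbours were singled out after their values were seen, and nothing about them was tested.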
